A study of Mus musculus with 6 samples.

Results

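Primary articular chondrocytes of wild-type (WT) mice under a condition labelled aging SNL were compared here with control chondrocytes by RNA-seq. The comparison was defined by the condition labels and took 4 of the 6 libraries of the series, 2 aging SNL and 2 control. All 17189 genes with values were members, and 13399 of them had enough counts to be tested. The other 2 libraries held aging SNL cells with spesolimab, a humanised antibody against the receptor for IL-36. They entered the filter on low counts, the scaling, the shared estimate of spread and the comparisons of replicates. Per its title, the series asks about experimental osteoarthritis, aged skin and the IL-36 receptor. SNL was not expanded in the labels and is used as given. The labels state no age of the mice, no dose and no time, and do not say whether the 2 libraries of a group came from separate animals or cultures. P-values here reflect the scatter among these libraries alone, and that scatter may be technical.

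Articular chondrocytes are the cells of joint cartilage. They secrete type II collagen and aggrecan, and they divide rarely in the adult joint but can re-enter the cell cycle in culture. In response to inflammatory cytokines they make acute-phase proteins, prostaglandins, nitric oxide and matrix-degrading proteases. Glucocorticoids act on them through a nuclear receptor that switches on its own set of target genes.

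Each library held between 16566791 and 17312833 counts. Values per gene are CPM, that is counts relative to the TMM-scaled library size, and differences are on the log2 CPM scale. The aging SNL libraries differed strongly from each other: 1857 tested genes, 13.9%, were over 2-fold apart, where the pair of controls gave 2.11% and the spesolimab pair 2.6%. Each library is therefore given on its own throughout, replicate 1 first and controls before aging SNL, with replicates numbered as in the labels.

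The labelled cell type was checked against 10 chondrocyte markers, all of which were detected in all 4 libraries. Their summed level was 31082.9 and 30269.6 TPM, a level scaled for transcript length, in the controls, 4839.9 TPM in aging SNL replicate 1 and 33236.2 TPM in aging SNL replicate 2. The replicate 1 library thus stood well below the other 3. In it 9 of the 10 markers were at least 2-fold below the control mean, against 875 of all 13399 tested genes. Over 18 macrophage markers the sums were 273.7 and 63.1 TPM in the controls and 251.2 and 93.1 TPM in aging SNL. These did not follow the groups: control replicate 1 and aging SNL replicate 1 were the high ones. Ptprc, the pan-leukocyte antigen, stood at 1.1, 0.08, 0.15 and 0.11 TPM, and Cx3cr1 was at 0 in control replicate 2 and aging SNL replicate 2. Summed levels of 15 keratinocyte markers stayed between 12.3 and 19.2 TPM, and 9 lymphoid, neutrophil and erythroid markers summed to 8.3 and 6.6 TPM in control and 25.9 and 27.8 TPM in aging SNL. Synovial fibroblast markers summed to between 723.9 and 880.4 TPM. Endothelial and mural markers summed to 95.5 and 124.7 TPM in control and 49.2 and 156.7 TPM in aging SNL. Their 8 tested members had medians of 0.50 and 0.25 log2 CPM from the control mean in aging SNL, unlike the sum in replicate 1. On the log2 TPM scale the median of all tested genes was -0.36 in replicate 1 and -0.07 in replicate 2. Adipocyte and muscle markers summed to 370.9 and 209.2 TPM in control and 521.4 and 457.0 TPM in aging SNL. In bulk RNA fewer cells of a type and less RNA per cell cannot be told apart.

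No gene was called between the groups in the edgeR quasi-likelihood fit of all 6 libraries (0% of 13399 at an adjusted p under 0.05). Before adjustment 1694 genes had a p under 0.05, and the lowest adjusted p was 0.055. DESeq2 called 445 genes, 227 higher and 218 lower. Left without aging SNL replicate 1, edgeR called 247 genes higher, 1.81% of those tested, and 220 lower, 1.61%. Without aging SNL replicate 2 it called 3525. In those 2 fits a single library stands for aging SNL and is assumed to vary like the other groups.

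Genes are described below by a gap rule with no test, since a permutation of 2 against 2 libraries cannot give a p below 0.333. Both aging SNL libraries stood above both controls for 20.9% of tested genes and below both for 21.1%. A gap of at least 1.5-fold between the nearest libraries of the groups left 221 genes above, 1.65%, and 307 below, 2.29%. On the deposited TPM scale the split was 97 above and 317 below. Most genes were quiet in both libraries: 11302, or 84.3%, were not at least 2-fold away from the control mean and outside both controls in either of them. Of the rest, 133 were 2-fold above in both and 160 below in both, while 650 and 657 were above or below in replicate 1 alone. Replicate 2 alone placed 150 above and 254 below, and 93 genes went opposite ways.

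Comparisons with no library in common gave a measure of how far the replicates shared a direction. Across 13399 genes, replicate 1 minus control 1 and replicate 2 minus control 2 had the same sign for 57.7% of genes, with a Pearson r of 0.256. With the controls exchanged the share was 51.2% and r was 0.067. Among the 368 genes over 2-fold in both differences of the first pairing, 76.1% had the same sign, and among 481 in the second, 58.2%. These are descriptions across genes, which are not independent replicates.

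**Figure D1:**
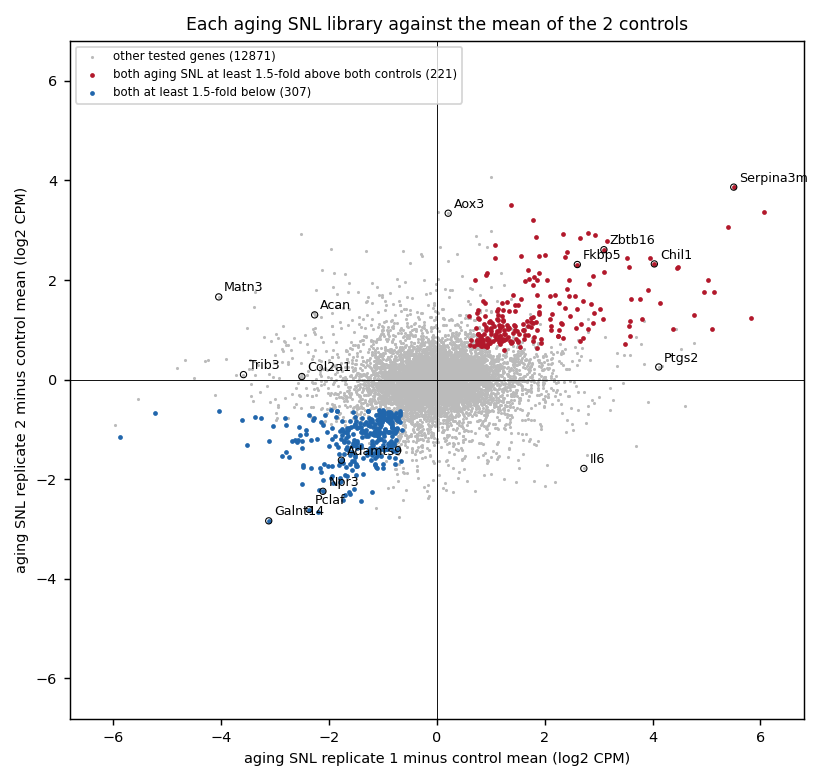
Difference of aging SNL replicate 1 (x axis) and replicate 2 (y axis) from the mean of the 2 controls, in log2 CPM, for 13399 tested genes, 1 point each. The 221 genes at least 1.5-fold above both controls in both libraries are red and the 307 below are blue. Replicate 1 spreads more widely than replicate 2, and genes such as Col2a1, Ptgs2 and Trib3 lie along the x axis.

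The genes with the widest gaps upward were led by serine protease inhibitors and acute-phase proteins, followed by targets of the glucocorticoid receptor. Serpina3m, a serpin, stood at 11.1 and 9.48 CPM in the controls, as against 471 and 151 CPM under aging SNL. Its lowest aging SNL library was 13.5-fold above its highest control. The log2 fold change was 4.92 ± 0.60 (SE), with an edgeR adjusted p = 0.155. Reads of Serpina3m and its near-identical neighbours may be divided unevenly between them. Lvrn, a membrane aminopeptidase, rested on low counts in control, 0.286 and 0.28 CPM, and reached 16.8 and 3.25 CPM.

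Several wide gaps came with nearly equal values within each group. Cdhr4, a cadherin-related protein, stood at 2.4 and 2.41 CPM in the controls, as against 13.4 and 14.8 CPM under aging SNL. Rnf180, a ubiquitin ligase, stood at 2.29 and 2.3 CPM and at 12.4 and 13.1 CPM. For Rnf180 the log2 fold change was 2.47 ± 0.17 (SE, edgeR adjusted p = 0.055). The aging SNL libraries did not overlap the controls for either gene and lay closer to each other than to them.

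In other genes both libraries were high but replicate 1 was far higher. Slc39a8, a zinc importer linked to cartilage breakdown in mice, stood at 17.3 and 11.3 CPM in the controls, as against 219 and 77 CPM under aging SNL. Chil1, a chitinase-like secreted protein, stood at 877 and 607 CPM and at 11954 and 3651 CPM. Adora1, the adenosine A1 receptor, stood at 2.57 and 2.97 CPM and at 62.7 and 13.6 CPM. Gas7, a cytoskeletal adaptor, stood at 5.49 and 6.28 CPM and at 51.5 and 26.8 CPM. Replicate 2 held these 4 genes 4.16 to 4.43-fold above the higher control, with adjusted p from 0.165 to 0.199 in edgeR over 6 libraries. Without replicate 1 the log2 fold change in edgeR was 2.431 for Slc39a8, 2.299 for Chil1, 2.287 for Adora1 and 2.187 for Gas7. These values rested on replicate 2 alone.

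**Figure D2:**
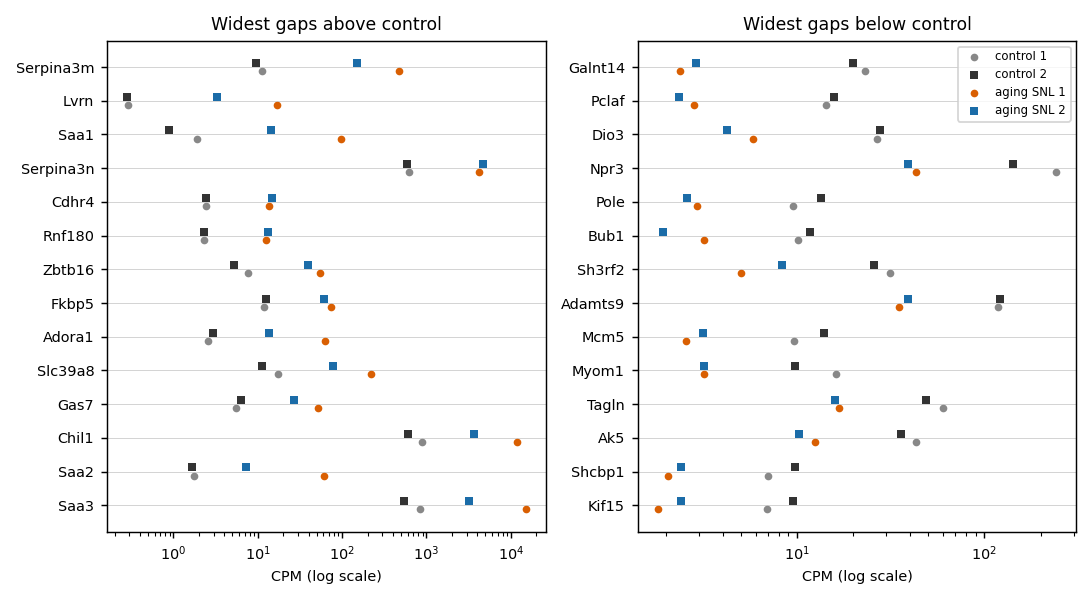
CPM on a log axis in the 2 control and 2 aging SNL libraries for the 14 genes with the widest gap above control and the 14 with the widest gap below, among genes with a mean of at least 5 CPM. Each point is 1 library. Groups do not overlap for any gene drawn, and Saa1, Saa2 and Saa3 differ widely between the aging SNL libraries.

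Downward, the widest gaps belonged to genes of unlike roles, several of them cell-cycle or replication genes described further on. Galnt14, which starts O-linked sugar chains on proteins, stood at 23 and 19.8 CPM in the controls, as against 2.36 and 2.89 CPM under aging SNL. Its highest aging SNL library was 6.63-fold below its lowest control, and the log2 fold change was -3.02 ± 0.24 (SE, edgeR adjusted p = 0.0708). Dio3, the enzyme that inactivates thyroid hormone, stood at 26.8 and 27.6 CPM and at 5.84 and 4.22 CPM. Npr3, the clearance receptor for natriuretic peptides, stood at 243 and 142 CPM and at 43 and 39.3 CPM. All 3 genes were separated by over 3-fold between the nearest libraries of the groups.

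Adamts9, a secreted metalloprotease, stood at 118 and 122 CPM in the controls, as against 35.2 and 39 CPM under aging SNL. No other of 27 tested matrix proteases had so wide a gap downward. Plau, the urokinase plasminogen activator of the same list, stood at 48.1 and 46.6 CPM and at 20.2 and 17.9 CPM. In contrast Mmp3, a stromelysin, stood at 854 and 579 CPM in the controls, as against 21771 and 2366 CPM under aging SNL. Other downward gaps were found for Sh3rf2, a ubiquitin ligase, at 31.5 and 25.8 CPM in the controls against 5.03 and 8.31 CPM. Ak5, an adenylate kinase, stood at 43 and 35.7 CPM against 12.4 and 10.2 CPM.

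Genes known as targets of the glucocorticoid receptor mostly stood above control. Of 22 tested members of the list, 16 were above both controls in both aging SNL libraries, against 20.9% of all genes. Of the 22, 11 passed the 1.5-fold gap upward (50%, against 1.65% of all genes). None passed it downward. The median difference from the control mean was 1.73 in replicate 1 and 0.76 in replicate 2, where the median of all genes was -0.01 and 0.01. The count of 16 was the same by total counts and on the TPM scale. By those scalings 2018 and 878 of all 13399 genes were above both controls. At least 2-fold above the control mean were 16 members in replicate 1 and 10 in replicate 2, against 821 and 342 of all 13399 genes. The list was put together with earlier results of these data known, and the labels name no hormone treatment. It also held Lcn2, lipocalin 2, at 1227 and 995 CPM in the controls, as against 16662 and 3821 CPM under aging SNL. Lcn2 is an acute-phase gene too, so the list was not wholly apart from the acute-phase genes below.

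Fkbp5, a co-chaperone that dampens the receptor and is among its most used reporters, stood at 11.9 and 12.4 CPM in the controls, as against 74.8 and 61 CPM under aging SNL. The groups lay 4.86-fold apart, with a log2 fold change of 2.48 ± 0.17 (SE, edgeR adjusted p = 0.055). Zbtb16, a zinc-finger repressor, stood at 7.72 and 5.16 CPM and at 55 and 39.1 CPM. Its log2 fold change was 2.87 ± 0.27 (SE, edgeR adjusted p = 0.108). Neither gene overlapped between groups, and the aging SNL replicates were within 1.5-fold of each other in both.

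Metabolic and regulatory targets were separated by smaller gaps. Pdk4, which restrains pyruvate oxidation, stood at 6.63 and 5.89 CPM in the controls, as against 34.9 and 20.2 CPM under aging SNL. Per1, a clock repressor, stood at 32.2 and 31.7 CPM and at 115 and 71.2 CPM. Tsc22d3, also called GILZ, stood at 25.7 and 27.2 CPM and at 96.5 and 53.1 CPM. Every value in aging SNL was above every control in these 3 genes.

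Klf15, a transcription factor, stood at 26.5 and 24.5 CPM and at 64.4 and 52.1 CPM, and Dusp1, a phosphatase of MAP kinases, at 56.6 and 56 CPM and at 141 and 113 CPM. The receptor gene itself, Nr3c1, stood at 166 and 162 CPM in the controls, as against 130 and 108 CPM under aging SNL, below both controls. Without replicate 1 its log2 fold change in edgeR was -0.60, resting on replicate 2 alone. Members with replicate 2 at or within the controls were Cebpd, at 104 and 101 CPM in the controls, as against 356 and 99 CPM under aging SNL, and Angptl4, at 148 and 197 CPM and 219 and 164 CPM. Cdkn1c, a cell-cycle inhibitor, was low in replicate 1 alone, at 508 and 421 CPM in the controls, as against 92.5 and 449 CPM under aging SNL.

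Acute-phase and antimicrobial genes stood above control in both libraries as well. Of 17 tested members, 15 did not overlap upward, against 20.9% of all genes. Of the 17, 11 passed the 1.5-fold gap (64.7%, against 1.65% of all genes), with medians of 2.34 and 1.62. Saa1, a serum amyloid A, stood at 1.89 and 0.897 CPM in the controls, as against 96 and 14.5 CPM under aging SNL, and Saa1 and Saa2 may share reads. Orm1, an acute-phase carrier protein, stood at 0.514 and 0.392 CPM and at 6.4 and 2.95 CPM. Hp, haptoglobin, stood at 521 and 318 CPM and at 3320 and 1088 CPM. Camp, a cathelicidin also made by neutrophils, stood at 1.14 and 0.729 CPM and at 3.23 and 4.64 CPM, and was the single tested member of the lymphoid, neutrophil and erythroid markers whose sum is given above. Lyz2, lysozyme of macrophages, overlapped between groups at 70.6 and 13.6 CPM against 78.3 and 22.8 CPM, its high libraries being those of the macrophage markers. The part of other cell types in the acute-phase values was not tested.

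Protease inhibitors and antioxidant genes added further members. Of 20 tested protease inhibitors 6 passed the gap upward (30%, against 1.65% of all genes) and 1 downward (5%, against 2.29%). Medians of that list were 1.21 in replicate 1 and 0.18 in replicate 2. Cst3, cystatin C, a blocker of cathepsins, stood at 445 and 351 CPM in the controls, as against 928 and 907 CPM under aging SNL. Timp3, an inhibitor of metalloproteases held in the matrix, was the member below, at 7315 and 5620 CPM and at 1899 and 3244 CPM. Among 35 tested genes of the NRF2 response and oxidative stress 6 passed upward (17.1%, against 1.65%). Medians there were 0.88 in replicate 1 and 0.11 in replicate 2, so the typical member was near control in replicate 2. Gpx3, a secreted glutathione peroxidase, stood at 349 and 201 CPM and at 1144 and 854 CPM, and Nqo1, a quinone reductase, at 20.3 and 23.9 CPM and at 97.1 and 55.5 CPM.

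Genes of mitosis stood below control in both libraries without exception among the members tested. All 30 were below both controls in both aging SNL libraries, against 21.1% of all genes, and 23 passed the 1.5-fold gap (76.7%, against 2.29%). Medians were -1.01 in replicate 1 and -1.39 in replicate 2. For DNA replication 31 of 36 lay below both controls and 14 passed the gap (38.9%), with medians of -1.06 and -0.75. The direction and the 30 of 30 held by total counts and on the TPM scale. By those scalings 3594 and 5755 of all 13399 genes were below both controls. The mitotic genes were in the median at least as far from control in replicate 2 as in replicate 1, with 29 of 30 at least 2-fold below in replicate 2 and 15 of 30 in replicate 1. Of the 36 replication genes 18 were at least 2-fold below in replicate 1 and 14 in replicate 2. Over all 13399 genes the counts were 875 and 455.

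Among the mitotic genes Bub1, a kinase of the spindle checkpoint, stood at 10.1 and 11.7 CPM in the controls, as against 3.17 and 1.93 CPM under aging SNL. Ttk, the checkpoint kinase upstream, stood at 5.09 and 6.5 CPM and at 1.8 and 1.69 CPM. Foxm1, the factor that activates genes of late cell cycle, stood at 12.2 and 17.9 CPM and at 5.03 and 5.9 CPM. The controls themselves differed, with control replicate 2 higher for each of the 3 genes.

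Kif15, a spindle motor, stood at 6.92 and 9.48 CPM in the controls, as against 1.8 and 2.41 CPM under aging SNL. Among replication genes Pole, the catalytic subunit of polymerase epsilon, stood at 9.54 and 13.5 CPM and at 2.92 and 2.59 CPM. Mcm5, a subunit of the replicative helicase, stood at 9.66 and 14 CPM and at 2.55 and 3.13 CPM. Lmnb1, lamin B1 of the nuclear envelope, stood at 15.1 and 14.8 CPM and at 4.47 and 6.33 CPM. Cdkn1a, the p21 inhibitor of cyclin-dependent kinases, stood at 98.5 and 136 CPM and at 341 and 166 CPM, so that replicate 2 was close above control replicate 2.

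Promoter sequences of the cell-cycle genes are shown because these genes shared a direction in both libraries and because short elements of their promoters are well known. Windows of 300 bases, 250 before and 50 from the start site on, came from RefSeq on GRCm38.p6, another build than the GRCm39 named for the counts, and 8452 of the 13399 tested genes had exactly 1 window. Both strands were searched. TTTGAA, the letters of the cell cycle genes homology region (CHR), was in 19 of 24 mitotic windows (79.2%), in 27.8% of 194 windows of genes with a downward gap and in 12% of all 8452. CCAAT was in 79.2% of the mitotic windows and in 39.6% of all. TTTGGCGC, a form of the E2F site, was in 20.8% of 24 replication windows and in 0.97% of all, and TTTCCCGC in 20.8% and 2.22%. GGNNTTTCC, a form of the NF-kappaB site, was in 35.7% of 14 windows of NF-kappaB genes, whose medians were 0.78 and -0.05, and in 6.03% of all. TGACNNNGC, the antioxidant element, was in 33.3% of 21 NRF2 windows and in 14.5% of all. A match is a description of letters and not a bound site.

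In the stretches that follow, all read 5′ to 3′ on the strand of the gene and ending before the start site, capitals mark TTTGAA and CCAAT or their reverse complements in the mitotic genes. They mark TTTGGCGC and CCAAT or their reverse complements in the helicase genes. The regions are chr7:135716460-135716579, minus strand, for Mki67, chr19:37376312-37376381, plus strand, for Kif11, chr4:118437344-118437413, minus strand, for Cdc20 and chr2:164769829-164769918, plus strand, for Ube2c. Those of the helicase genes are chr8:75109349-75109508, plus strand, for Mcm5 and chr1:128359706-128359825, minus strand, for Mcm6.
Mki67: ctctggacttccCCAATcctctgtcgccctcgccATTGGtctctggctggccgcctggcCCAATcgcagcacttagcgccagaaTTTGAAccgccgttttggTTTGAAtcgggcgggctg
Kif11: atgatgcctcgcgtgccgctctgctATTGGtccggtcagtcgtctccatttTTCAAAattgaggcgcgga
Cdc20: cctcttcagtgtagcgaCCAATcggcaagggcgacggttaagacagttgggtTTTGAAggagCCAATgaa
Ube2c: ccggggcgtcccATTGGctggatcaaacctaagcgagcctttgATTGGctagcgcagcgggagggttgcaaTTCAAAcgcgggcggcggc
Mcm5: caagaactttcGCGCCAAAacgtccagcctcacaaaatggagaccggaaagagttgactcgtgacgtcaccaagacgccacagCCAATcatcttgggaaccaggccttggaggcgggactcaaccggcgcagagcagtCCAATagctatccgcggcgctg
Mcm6: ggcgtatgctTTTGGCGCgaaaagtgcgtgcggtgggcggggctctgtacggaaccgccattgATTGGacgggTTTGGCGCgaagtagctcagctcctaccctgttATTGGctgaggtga

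Expression of these printed genes followed the same order of groups. Kif11, a spindle motor, stood at 18.6 and 27 CPM in the controls, as against 8.57 and 7.47 CPM under aging SNL. Cdc20, the activator of the anaphase-promoting complex, stood at 15.4 and 23.3 CPM and at 9.25 and 7.17 CPM. Ube2c, its ubiquitin-conjugating enzyme, stood at 9.66 and 13.4 CPM and at 5.16 and 4.7 CPM. Mcm6, of the same helicase as Mcm5, stood at 41.2 and 49.1 CPM and at 14.7 and 31.1 CPM, with replicate 1 well below replicate 2. Both aging SNL libraries were below both controls for each of these 4 genes.

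Genes of the contractile actin cytoskeleton and other targets of the SRF and YAP pathways lay below control in like measure in both libraries. Of 31 tested members 23 were below both controls, against 21.1% of all genes. Of the 31, 11 passed the gap (35.5%, against 2.29%), with medians of -0.59 and -0.60. Tagln, transgelin of stress fibres, stood at 60.2 and 48.6 CPM in the controls, as against 16.8 and 16 CPM under aging SNL. Vcl, vinculin of focal adhesions, stood at 403 and 313 CPM and at 155 and 146 CPM. Tpm1, a tropomyosin, stood at 477 and 440 CPM and at 215 and 230 CPM. Its log2 fold change of -1.04 ± 0.11 (SE) had an edgeR adjusted p = 0.108. Acta2, smooth muscle actin, stood at 128 and 108 CPM and at 20.7 and 50 CPM, lower in replicate 1. Myom1, a sarcomere protein, was likewise low at 16.2 and 9.76 CPM in the controls, as against 3.17 and 3.19 CPM under aging SNL. At least 2-fold below the control mean were 13 of the 31 in replicate 1 and 8 in replicate 2, against 875 and 455 of all 13399 genes.

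Ligands, receptors and feedback inhibitors of the Wnt and BMP pathways included further genes below control. Of 37 tested Wnt genes 19 were below both controls (against 21.1% of all genes) and 5 passed the gap (13.5%, against 2.29%), with medians of -0.35 and -0.31. Wif1, a secreted Wnt inhibitor, stood at 17.4 and 15.7 CPM in the controls, as against 7.14 and 9.34 CPM under aging SNL, and Fzd8, a Wnt receptor, at 101 and 89.8 CPM and at 46 and 55.5 CPM. Sfrp2, another secreted inhibitor, stood at 1240 and 709 CPM and at 200 and 409 CPM. The TGF-beta and BMP list as a whole had medians of 0 and -0.14, with 4 of 42 members past the gap downward (9.52%, against 2.29% of all genes). Those with the widest gaps were Gdf10, a BMP-related ligand, at 80.5 and 87.4 CPM in the controls, as against 23.7 and 29.7 CPM under aging SNL, and Smad6, an inhibitor of BMP signalling, at 37.1 and 33.9 CPM and 13.7 and 17.4 CPM. Id3, a BMP target, stood at 121 and 110 CPM and at 70.4 and 68.9 CPM. For Gdf10, Smad6 and Id3 both aging SNL libraries lay below both controls.

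The hypertrophy and mineralisation list went both ways. Of 16 tested members 5 were above both controls and 6 below, against 20.9% and 21.1% of all genes, with medians of -0.29 and 0.23. The edgeR fit of all 6 libraries called 0 of the 16. At least 2-fold above the control mean were 3 in replicate 1 and 1 in replicate 2, against 821 and 342 of all 13399 genes. At least 2-fold below were 6 and 4, against 875 and 455 of all genes. Ibsp, bone sialoprotein, stood at 289 and 183 CPM in the controls, as against 78.9 and 73.7 CPM under aging SNL, and Alpl, the alkaline phosphatase of mineralising cells, at 54.9 and 56.9 CPM and at 13.5 and 26.8 CPM. Panx3, a channel protein of hypertrophic chondrocytes, stood at 31.7 and 33 CPM and at 5.59 and 12.5 CPM. Past the gap were 4 of the 16 downward (25%, against 2.29% of all genes) and 1 upward (6.25%, against 1.65%), the calcium-binding protein gene S100a1, at 24.1 and 24.2 CPM against 54.7 and 39.9 CPM. The 16 osteoblast and osteoclast markers, Ibsp and Alpl among them, summed to 3292.9 and 2769.3 TPM in control and to 1317.9 and 1899.6 TPM in aging SNL, and their part in these values was not tested. Col10a1, the collagen of hypertrophic cartilage, overlapped between groups at 19.3 and 23.3 CPM against 14.9 and 23 CPM.

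Metabolic lists lay slightly above control, with small gaps. Of 24 tested cholesterol synthesis genes 19 were above both controls, against 20.9% of all genes, with medians of 0.30 and 0.36. Of 32 glycolysis and hypoxia genes 21 were above, with medians of 0.49 and 0.35, and of 30 lysosome and autophagy genes 19, with medians of 0.42 and 0.21. These counts depended on scaling: on the TPM scale they were 7, 13 and 7, where 878 of all 13399 genes were above both controls. On that scale the cholesterol median of replicate 1 was -0.08 and the median of all genes was -0.36. Slc2a1, the glucose transporter GLUT1, stood at 137 and 150 CPM in the controls, as against 261 and 239 CPM under aging SNL. Car12, a carbonic anhydrase, had the widest gap of its list at 8.92 and 16.2 CPM against 44.8 and 67.3 CPM. Msmo1, a sterol oxidase, stood at 56.7 and 53.4 CPM and at 103 and 88.5 CPM.

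Promoters of these metabolic genes are shown for ACGTG and CCAAT, the commonest searched elements of their lists. ACGTG, the core of the hypoxia response element, was in 13 of 20 glycolysis and hypoxia windows (65%) and in 25.7% of all. CCAAT was in 14 of 14 cholesterol windows (100%) and in 39.6% of all. For comparison TGTTCT, a half-site of the glucocorticoid response element, was in 1 of 13 windows of glucocorticoid-responsive genes (7.69%), in 18.7% of 139 windows of genes with an upward gap and in 12% of all. The same 13 windows held ACGTG in 46.2% and TGACNNNGC in 38.5%. TCACNCCAC, a sterol regulatory element, was in 1 of 14 cholesterol windows (7.14%) and in 0.97% of all. Capitals mark ACGTG in Slc2a1, at chr4:119108685-119108744, plus strand, and Ankrd37, at chr8:45999851-45999900, minus strand. They mark CCAAT or its reverse complement in Msmo1, at chr8:64733619-64733748, minus strand, and Tm7sf2, at chr19:6067871-6067920, minus strand, all on GRCm38.p6 from RefSeq, 5′ to 3′ on the strand of the gene.
Slc2a1: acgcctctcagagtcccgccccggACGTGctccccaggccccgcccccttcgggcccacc
Ankrd37: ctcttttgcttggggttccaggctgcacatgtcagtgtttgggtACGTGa
Msmo1: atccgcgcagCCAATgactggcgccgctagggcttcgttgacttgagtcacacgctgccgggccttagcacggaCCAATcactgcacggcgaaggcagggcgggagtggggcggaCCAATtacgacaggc
Tm7sf2: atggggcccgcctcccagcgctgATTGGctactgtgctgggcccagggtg

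**Figure D3:**
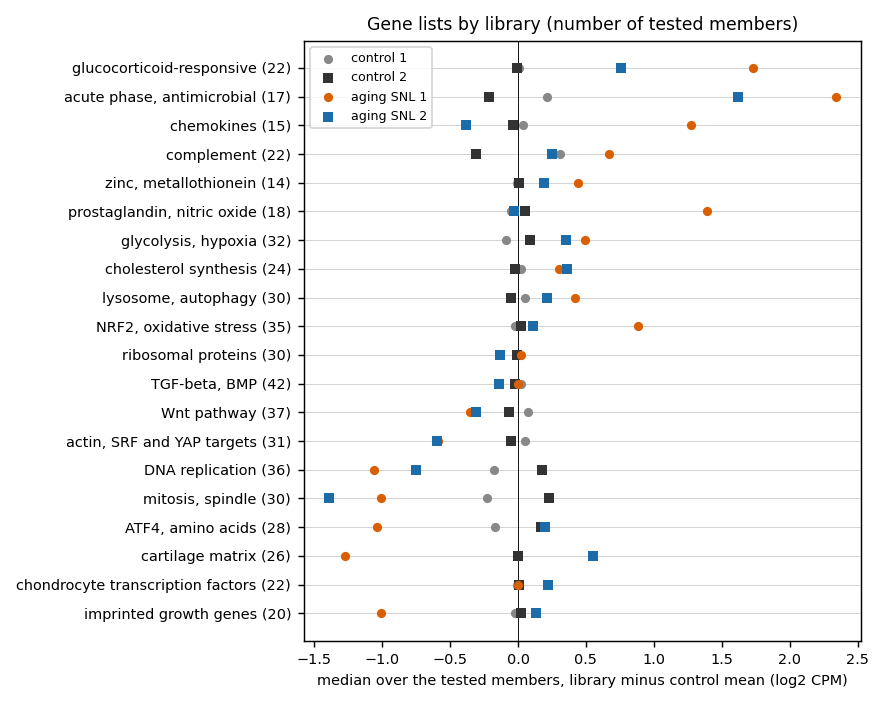
Median difference from the control mean in log2 CPM (x axis) over the tested members of 20 gene lists (y axis, with the number of members), 1 point for each of the 4 libraries. Mitotic, replication and actin genes lie left of the controls in both aging SNL libraries and acute-phase and glucocorticoid-responsive genes right of them, while cartilage matrix, ATF4 and imprinted genes lie left in replicate 1 alone.

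Cartilage matrix genes separated the replicates. Of 26 tested members 15 were at least 2-fold below the control mean in replicate 1 and none in replicate 2, where 6 were at least 2-fold above. Of all 13399 genes 875 were as far below in replicate 1, and 455 below and 342 above in replicate 2. Medians were -1.27 and 0.55. Col11a2, a minor fibril collagen, stood at 1962 and 2303 CPM in the controls, as against 401 and 3507 CPM under aging SNL. Ucma, a secreted protein of upper-zone cartilage, stood at 592 and 450 CPM and at 106 and 1003 CPM. Matn3, a matrilin that bridges collagen and proteoglycan, had the largest span, with 37.4 and 46.5 CPM in the controls against 2.42 and 132 CPM. In these 3 genes the controls lay between the aging SNL libraries.

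Other matrix genes did not follow that pattern. Dcn, decorin, stood at 1927 and 1508 CPM in the controls, as against 6246 and 2829 CPM under aging SNL, above both controls in both libraries. Cilp, a protein of the middle zone, stood at 5.2 and 2.86 CPM and at 7.45 and 25.1 CPM. Ogn, osteoglycin, stood at 1376 and 1091 CPM and at 325 and 826 CPM, below in both. The transcription factor gene Sox9, the master regulator of chondrocytes, did follow it, at 149 and 156 CPM against 71.5 and 207 CPM. Foxo3, a factor of cell maintenance in cartilage, had the widest gap among 22 tested chondrocyte transcription factors, at 86 and 84.7 CPM in the controls, as against 150 and 147 CPM under aging SNL. Its log2 fold change was 0.80 ± 0.08 (SE, edgeR adjusted p = 0.108).

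Amino acid and stress genes controlled by ATF4 were low in replicate 1 alone. Of 28 tested members 15 were at least 2-fold below the control mean in replicate 1, against 875 of all 13399 genes. In replicate 2 none was 2-fold away in either direction, where 342 of all genes were above and 455 below. Medians were -1.04 and 0.20. Atf4 itself stood at 185 and 237 CPM in the controls, as against 93.3 and 252 CPM under aging SNL. Trib3, a target and inhibitor of the pathway, stood at 73.6 and 115 CPM and at 7.58 and 98.8 CPM. Phgdh, the first enzyme of serine synthesis, stood at 92.6 and 112 CPM and at 26 and 105 CPM, and Slc7a5, an importer of large amino acids, at 88 and 117 CPM and at 19.3 and 149 CPM. Slc7a11, the cystine transporter, went against the list in replicate 1 at 21.5 and 27.6 CPM in the controls, as against 55.8 and 25.9 CPM under aging SNL.

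Imprinted genes of growth control were similar, with 10 of 20 tested at least 2-fold below in replicate 1 and 1, Dio3, in replicate 2. Over all 13399 genes the counts were 875 and 455. Plagl1, a zinc-finger factor of that network, stood at 841 and 666 CPM in the controls, as against 223 and 767 CPM under aging SNL. Grb10, an inhibitor of insulin and IGF signalling, stood at 538 and 602 CPM and at 285 and 591 CPM. Replicate 2 lay within the range of the controls for Plagl1 and Grb10.

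**Figure D4:**
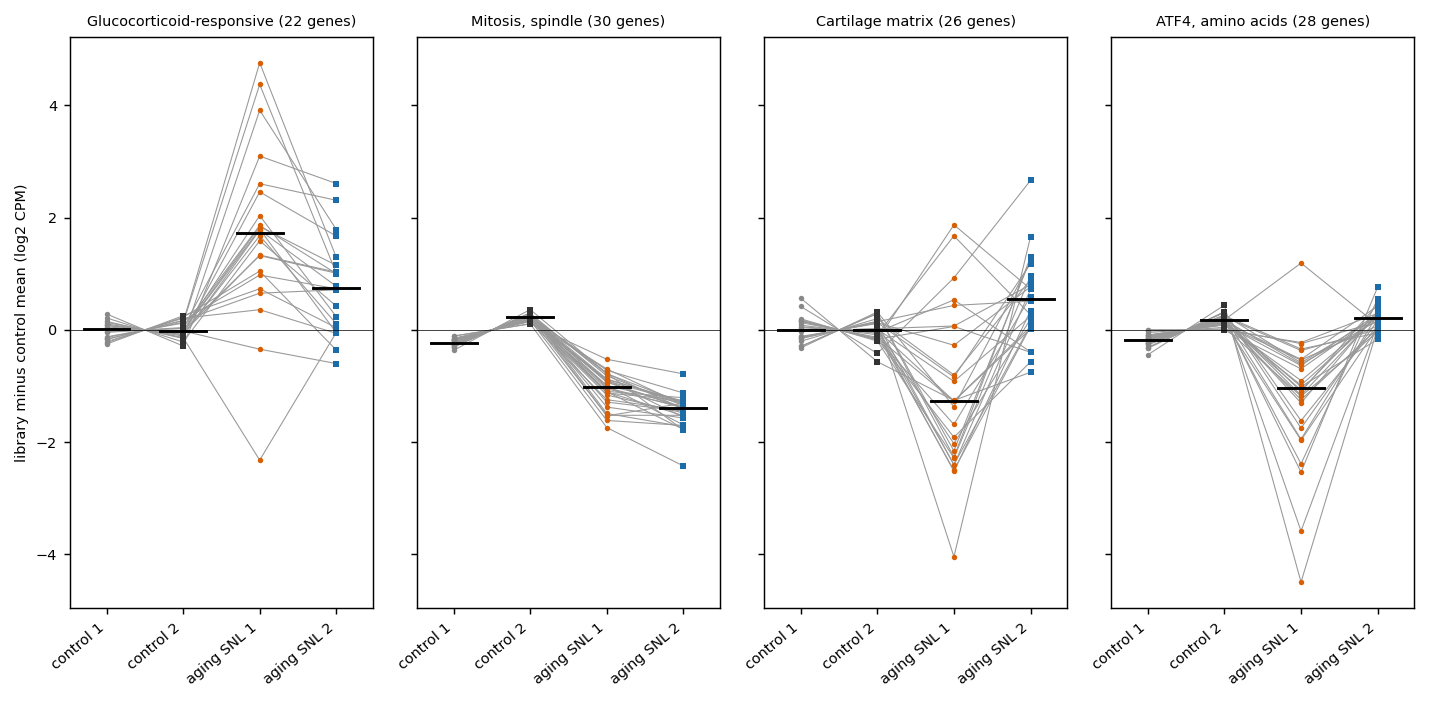
Difference of each library from the control mean in log2 CPM (y axis) for every tested member of 4 gene lists, with 1 line for each gene and a black bar at the median. The mitotic genes lie together below control in both aging SNL libraries, whereas the cartilage matrix and ATF4 members have negative medians in replicate 1 and positive ones in replicate 2.

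Inflammatory mediators were mostly high in replicate 1, and in replicate 2 some were above control and others near or below it. Ptgs2, cyclooxygenase-2 of prostaglandin synthesis, stood at 7.14 and 12.8 CPM in the controls, as against 168 and 11.4 CPM under aging SNL. Ptges, the synthase acting after it, stood at 61.2 and 60.5 CPM and at 357 and 58.8 CPM. Of 18 tested prostaglandin and nitric oxide genes 11 were at least 2-fold above the control mean in replicate 1 and 2 in replicate 2. Over all 13399 genes the counts were 821 and 342. In both libraries 7 of the 18 were above both controls and 0 below, against 20.9% and 21.1% of all genes, and 3 passed the gap upward (16.7%, against 1.65%), namely Nos2, Ptgs1 and Ptgfr. Nos2, the inducible nitric oxide synthase, was above in both at 3.77 and 5.49 CPM against 266 and 10.8 CPM.

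Among 15 tested chemokines 9 were at least 2-fold above the control mean in replicate 1 and 1, Ccl5, in replicate 2. Over all 13399 genes the counts were 821 and 342. Ccl5 stood at 0.343 and 0.505 CPM in the controls, as against 18.4 and 0.964 CPM under aging SNL. Cxcl1, which attracts neutrophils, stood at 53.4 and 76.8 CPM and at 598 and 41.8 CPM. Medians of the list were 1.27 and -0.38. Il1rl2, the IL-36 receptor gene, stood at 16.3 and 11.2 CPM and at 57.2 and 15.9 CPM, so that replicate 2 lay within the controls. Il6ra, the IL-6 receptor chain, was above in both at 4.34 and 4.09 CPM against 16 and 11.9 CPM.

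Among the genes on opposite sides of control was the cytokine gene Il6, which stood at 7.6 and 10.1 CPM in control, at 58.8 CPM in replicate 1 and at 2.47 CPM in replicate 2. Ch25h, which makes 25-hydroxycholesterol, stood at 9.03 and 9.19 CPM and at 22.9 and 3.01 CPM. The 2-fold rule placed 36 genes above in replicate 1 and below in replicate 2. The 57 genes the other way included Sox8, a factor related to Sox9, at 5.37 and 7.51 CPM in the controls, as against 1.55 and 39.5 CPM under aging SNL. Clec3b, tetranectin, stood at 10.9 and 13.7 CPM and at 2.48 and 42.7 CPM, and Tubb2b, a tubulin, at 41.1 and 35.5 CPM and at 12.4 and 102 CPM.

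Further genes differed in a single library while the other stayed near control. In replicate 1 Rgs2, a brake on G-protein signalling, stood at 199 CPM, with 16.9 and 22.8 CPM in the controls and 23.7 CPM in replicate 2. Epas1, the hypoxia factor HIF-2alpha, stood at 263 CPM there, with 45.6 and 40.6 CPM in the controls and 36 CPM in replicate 2. Il13ra2, a decoy receptor for IL-13, stood at 18.8 CPM in replicate 1 and between 0.785 and 1.14 CPM in the other 3 libraries. These 3 genes marked replicate 1 alone.

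In replicate 2 Aox3, an aldehyde oxidase, stood at 31.9 CPM, with 3.66 and 2.52 CPM in the controls and 3.54 CPM in replicate 1. Without replicate 1 its log2 fold change in edgeR was 3.37, resting on replicate 2 alone. Bmp3, an inhibitory BMP ligand, stood at 24.2 CPM there and between 6.73 and 6.97 CPM in the other 3 libraries. Cd55, a complement regulator, stood at 90.8 CPM, with 27.1 and 20.9 CPM in the controls and 23.6 CPM in replicate 1. Arnt2, a partner of bHLH-PAS factors, was low in replicate 2 at 6.45 CPM, with 26.2 and 19.2 CPM in the controls and 27.6 CPM in replicate 1. The fold change of Aox3 without replicate 1 was thus that of replicate 2, although replicate 1 was at the control level.

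**Figure D5:**
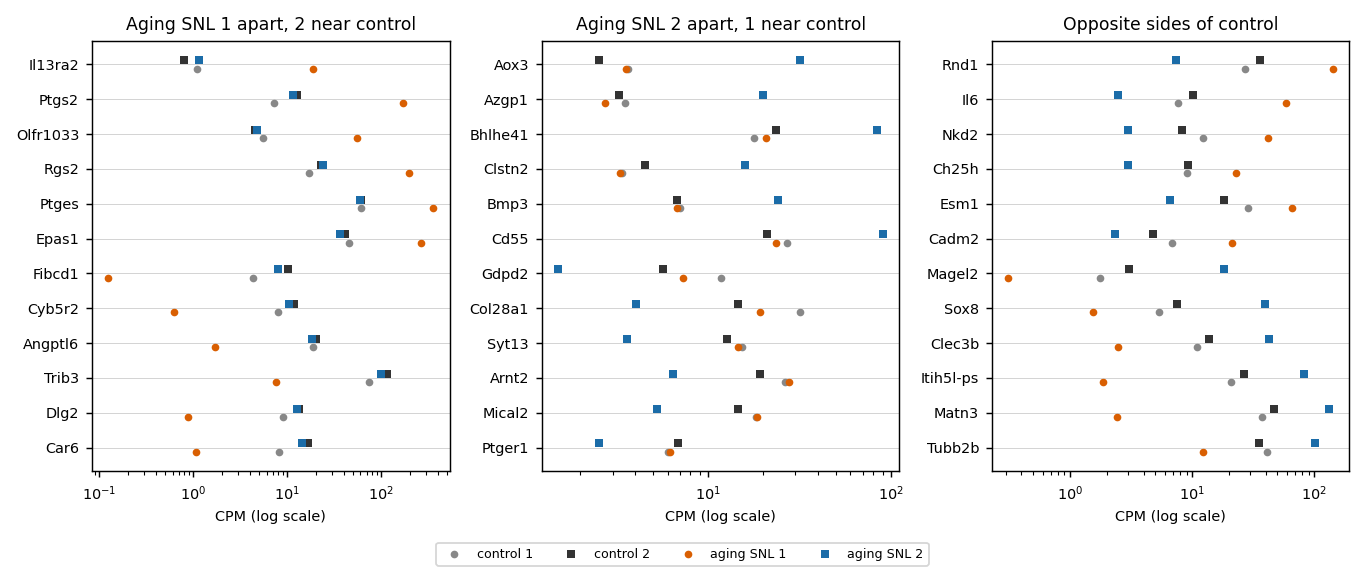
CPM on a log axis in the 4 libraries for 12 genes apart in aging SNL replicate 1 with replicate 2 within 0.3 log2 of the control mean, 12 apart in replicate 2 with replicate 1 near control, and 12 on opposite sides of control. Each point is 1 library. In the right panel the controls lie between the aging SNL libraries for every gene drawn.

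Genes of the respiratory chain and of protein folding showed small differences on the CPM scale. Over 30 tested nuclear genes of the respiratory chain medians were 0.02 and 0.03, and over 29 genes of protein and collagen folding 0.10 and 0.08, with 0 past the gap in both lists. Of 30 ribosomal protein genes 0 were above both controls, 12 were below (against 21.1% of all genes) and none passed the gap, with medians of 0.02 and -0.13. These lists followed the scaling: on the TPM scale 29 of the 30 ribosomal and 16 of the 30 respiratory genes were below both controls, as were 5755 of all 13399 tested genes, and the respiratory medians were -0.38 and -0.06. Of 19 tested clock genes 9 were above both controls and 2 below, against 20.9% and 21.1% of all genes, and 2 passed the gap upward, against 1.65% of all genes. Besides Per1 this was Nr1d1, a repressor, at 35.1 and 33.4 CPM in the controls, as against 97.5 and 58 CPM under aging SNL. On the TPM scale 5 of the 19 were above both controls and 5 below, against 878 and 5755 of 13399. Of 22 interferon-stimulated genes 2 were above both controls and 1 was below, against 20.9% and 21.1% of all genes. In replicate 1, 7 were at least 2-fold below the control mean, against 875 of all 13399 genes.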

How the data were processed

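RNA-seq of mouse primary articular chondrocytes was deposited for 6 libraries, 2 in each group. The authors deposited an expected count and a TPM value per gene and library, per the file headers. Per the submitters' processing notes the tools named were Bowtie2 2.3.4.3, RSEM 1.3.1 and DESeq2 1.4.5, with build GRCm39; the annotation and strandedness are not given in the sources used here. Of 22173 genes listed, 17189 had values and 4984 were empty. Another 15 columns of per-sample values were not used.

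Expected counts, of which 12.3% were not whole, were rounded, filtered to genes with at least 10 counts by filterByExpr (total of at least 15; 13399 kept) and scaled by TMM. They were tested with the quasi-likelihood test of edgeR 4.0.16 (R 4.3.3) over all 6 libraries, with Benjamini-Hochberg adjustment, 3 residual degrees of freedom and a threshold of 0.05. Log2 CPM for differences from the control mean used a prior count of 2. DESeq2 1.42.0, limma 3.58.1 on log2 TPM, other scalings and filters, a replicate block and leaving out each library were alternatives. The edgeR step was tested on simulated data. Promoter letters were searched in RefSeq windows. Reads of near-identical genes, such as the Serpina3 and Saa families, and of overlapping genes cannot be assigned with certainty.

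Named genes were the 14 with the widest gaps in each direction and the 6 most opposed each way. The 6 most apart in a single aging SNL library in each direction were named too. All of these had a mean of at least 5 CPM. Up to 4 genes with the widest gaps of each gene list were named without that floor, so some rest on low counts. Other list members named were chosen after their values were seen. The members and lists were chosen with earlier results of these data known. Results of a few genes are not reported here.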

Additional observations from a re-analysis of the deposited data

How the results depend on the processing

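Run with all libraries, edgeR called 0 genes under every scaling and filter, as did limma on log2 TPM and limma-voom with library weights. The edgeR fit with a replicate block also called 0 genes, with 1793 at an unadjusted p under 0.05. DESeq2 called 445. Leaving out 1 library gave 0 to 3525, with 467 without aging SNL replicate 1 and 3525 without aging SNL replicate 2. Replicate numbers did not pair the samples by any stated litter, batch or day. In every group the column names of replicate 2 differed from those of replicate 1 in letter case and a suffix. Deviations of same-numbered libraries correlated across genes at 0.246 between control and aging SNL and 0.419 between control and spesolimab. Between aging SNL and spesolimab the correlation was 0.286, with only 2 numbers. What sets the replicate numbers apart was not tested.

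Genes at least 1.5-fold above and below numbered 221 and 307. Above, there were 97 on the TPM scale and 385 with no filter on low counts. With no overlap as the rule there were 2798 above and 2822 below, with a 2-fold gap 86 and 95, and among genes averaging at least 5 CPM 125 and 162. Leaving out 1 library gave 352 to 1349 above and 483 to 1501 below, since fewer libraries then bound the gap.

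Over 197 named genes and 3148 alternative values of the fold change, 8 changed sign, all in limma on TPM. On log2(TPM + 1) and log2(TPM + 0.1), Rela was -0.043 and -0.044, Nfkb1 -0.020 and -0.020, Dnajb9 -0.015 and -0.016 and Cox5a -0.080 and -0.080. Values that passed the threshold where the 6-library edgeR fit did not came only from DESeq2 and from fits left with 1 aging SNL library. With 2 libraries a group, and replicates of aging SNL far apart, even wide differences were not called by edgeR over 6 libraries. Serpina3m, 13.5-fold apart between the nearest libraries of the groups, had an edgeR adjusted p = 0.155. The lack of a call is thus no sign that a gene did not differ.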
